A study of Mus musculus with 18 samples.

Results

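Zeb2 KO cells were compared between d4 and d6 of neural differentiation (ND), the days that frame the change from serum to N2B27 with retinoic acid. These are 6 of the 18 libraries of the series, 3 of KO_D4 and 3 of KO_D6, chosen by genotype and day alone, and 10965 genes were compared. The cells were mouse embryonic stem cells (ESCs) of the CD1 strain with the genotype Zeb2 -/-. The control cells (Ctrl) were Zeb2 fl/fl and gave another 6 libraries on the same days. All of these cells had been kept in 2i + LIF, a medium that holds ESCs in the ground state, until d0. They then grew as embryoid bodies (EBs) with 15% fetal bovine serum, renewed on d2, and on d4 the medium was replaced by N2B27 with 500 nM retinoic acid. The KO cells had been made from cells with the floxed alleles by transient expression of Cre. More than 1 KO line was derived, and which line gave each library is not given in the sources used here. The labels call the d4 cells multipotent progenitors and the d6 cells neural progenitors.

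Zeb2 is a zinc finger transcription factor that binds E-boxes and represses or activates genes with its cofactors, and it is needed for neural development. Retinoic acid enters the nucleus and binds receptors that sit on DNA as pairs, which then switch from repressing to activating their target genes, and in EBs it promotes neural fate. Between the naive ground state and neural fate, ESCs pass through a state like that of the postimplantation epiblast.

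Zeb2 itself (ENSMUSG00000026872, GRCm38 chromosome 2, 44983632 to 45117395, minus strand) was read first as a check of the labels. It was at 0.126, 0.204 and 0.161 TPM in the KO_D4 libraries and at 0.717, 0.594 and 0.733 TPM in the KO_D6 libraries, on 12 to 24 and 71 to 84 reads. In the Ctrl cells it went from a mean of 1.36 TPM to 7.66 TPM. The KO libraries thus lay below every Ctrl library of the same day, and the low level in KO cells still rose from d4 to d6 (log2 change 0.53 ± 0.12, SE, adjusted p = 0.0012). The adjusted p of limma exceeded 0.01 with only the compared groups fitted (0.027), a pseudocount of 5 (0.0337) or quantile normalization (0.0104). The table holds 1 value per gene, so reads from exons that a deletion leaves in place cannot be told apart from the rest.

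The label neural progenitor was held against its markers. Of 7 neural progenitor markers in the table, 2 rose and 2 fell in the KO cells, and their summed level was 33.4 to 42.3 TPM at d4 and 50.0 to 65.1 TPM at d6, most of it at d6 from Nes, an intermediate filament gene. In the Ctrl cells 6 of the 7 rose, and the sum reached 286 to 350 TPM. Pax6 in KO cells fell to 0.934, 0.827 and 0.715 TPM at d6, and Zic1 lay between 0.139 and 0.397 TPM. The 8 markers of pluripotent or epiblast cells summed to 4710 to 4870 TPM at d4 and still to 4300 to 4710 TPM at d6. The data therefore went against the label, and the cells are called KO_D6 cells here. Of the other types, 5 neuron markers summed to 236 to 267 TPM at d4 and 87.6 to 107 TPM at d6. The 3 germ cell markers summed to 96.5 to 113 TPM at d4 and 76.6 to 102 TPM at d6. At d6, 5 endoderm markers reached 15.9 to 22.7 TPM in sum, 3 mesoderm markers 9.54 to 14.5 TPM and 2 trophectoderm markers 7.22 to 12.1 TPM. The 1 marker of blood and endothelium in the table, Tek, was at 6.02 to 6.67 TPM at d4 and fell to between 3.14 and 3.75 TPM at d6. In such bulk samples fewer cells of a type and less RNA per cell cannot be told apart.

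From d4 to d6, 4540 of the 10965 genes (41.4%) were called in the KO cells, with 2355 higher (21.5%) and 2185 lower (19.9%) at d6. A gene is called here when the Benjamini-Hochberg adjusted p of limma, over all genes, is below 0.01. TPM is the authors' transcript abundance, scaled for gene length and library size, and changes are differences of log2(TPM + 1), which understate the change of genes near 0 TPM. The median change over all genes was 0.03. Counts of genes that rose or fell within a list in KO cells are to be read beside these shares of all genes. By the study's threshold for a DEG (unadjusted p below 0.01 and a log2 change above 1 in size), 725 genes rose (6.61%) and 320 fell (2.92%), which is 9.53% together. For 3208 genes (29.3%) every d6 library lay above every d4 library, and for 2827 genes (25.8%) below. The Ctrl cells had 4833 called genes (44.1%). The difference between the KO and the Ctrl response, tested gene by gene as an interaction of libraries that the contrasts do not share, was called for 1468 genes (13.4%), with 778 more positive (7.1%) and 690 more negative (6.29%) in KO cells. The authors' filter had removed the least variable genes, so these shares are shares of the variable genes only. The reads that could be recovered from the TPM values numbered 9699948 to 15617675 per library in these 4 groups.

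A limit on all of these values comes from 4 chromosome segments whose genes moved together. Genes of all of chromosome 8 had a median change of -0.43 from KO_D4 to KO_D6, those of chromosome 12 from 40 to 120 Mb -0.52, those of chromosome 6 from 80 to 150 Mb -0.35, and those of chromosome 17 from 60 to 100 Mb 0.95. The rest of chromosomes 6, 12 and 17 had medians of 0.02, 0.02 and 0.10. The same segments moved in the Ctrl cells, by -0.46, -0.55, -0.44 and 0.90. In each segment the KO_D0, KO_D4 and Ctrl_D4 libraries lay on one side of 0 and the KO_D6, Ctrl_D6 and Ctrl_D0 libraries on the other, as the plot of the segments shows. Within a side the groups could still differ, as on chromosome 6, where Ctrl_D4 lay at 0.24 to 0.27 and KO_D4 at 0.13 to 0.16. On chromosome 17 the first set lay between -0.48 and -0.42 and the second between 0.40 and 0.51 relative to other genes.

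The segments hold 1476 genes (13.5% of the table), and they were defined after the values were seen. Of the 668 genes in the table on chromosome 8, 41 rose and 370 fell, and of the 113 genes of the chromosome 17 segment 95 rose and 3 fell. The study also sequenced DNA for methylation on these days, but those reads were not used here. From RNA alone, a change of activity over whole segments cannot be told apart from a difference in copy number between d4 and d6 cells. Whether the d4 and d6 libraries came from the same line is not given, which concerns the genes outside the segments as well. With the median of each segment removed in each library, 4091 genes were called, and the share that was higher went from 51.9% to 59.5%. It was 60.1% when the genes of the segments were left out, with 3554 calls among 9489 genes. A called gene in a segment is marked below, with its value after the median was removed. Some segment genes that were not called are given without that value. Values of Ctrl cells and differences between the genotypes are given without that removal.

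**Figure D1:**
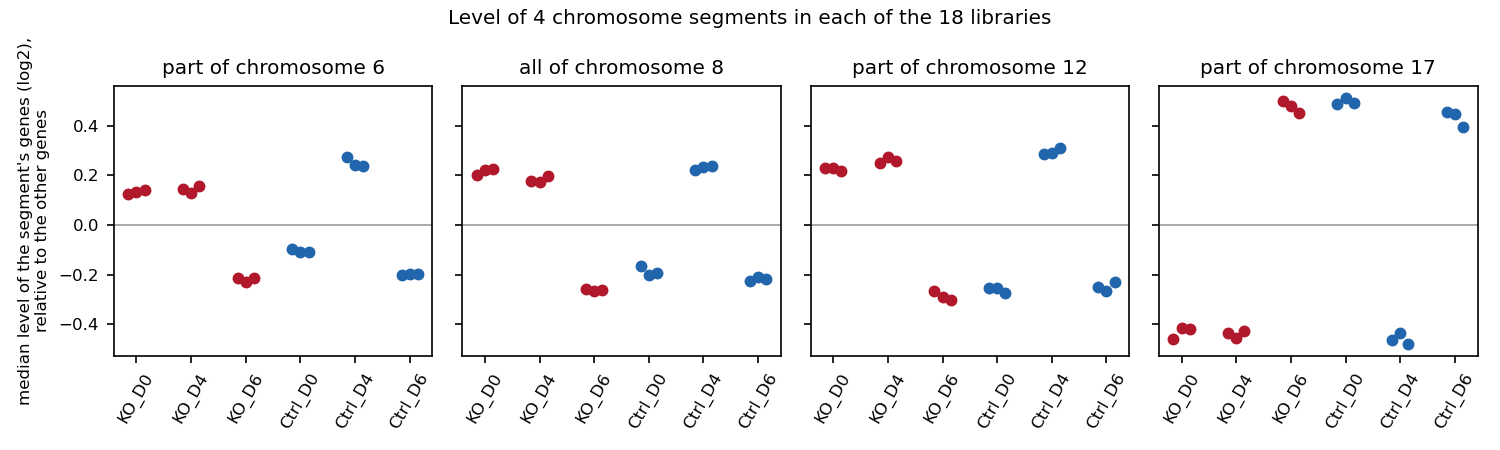
Each point is 1 library, with KO libraries in red and Ctrl libraries in blue. The vertical axis is the median log2 level of a segment's genes relative to the other genes. In every panel KO_D4 and KO_D6 lie on opposite sides of 0, and so do Ctrl_D4 and Ctrl_D6, while KO_D0 lies with KO_D4 and Ctrl_D0 with Ctrl_D6.

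One KO_D6 library stood somewhat apart. In d6 replicate 1, 194 of 9601 genes differed by more than 1 (log2) from the mean of the other two d6 libraries, against 83 and 151 genes for replicates 2 and 3. Its actin and keratin genes were lower and its hypoxia genes higher, and values without it are given where it matters.

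Genes of the naive ground state fell. Of 13 naive transcription factors, 12 fell and 1 rose in KO cells, with a median change of -2.08. In Ctrl cells all 13 fell, with a median of -2.35. The KO median was -1.66 with segment medians removed, a value not to be set against the unadjusted Ctrl median. Prdm14, which keeps DNA methylation and lineage genes down in ground state cells, was at 51.3, 41.9 and 55.3 TPM at d4 and at 6.02, 4.58 and 3.86 TPM at d6, a fall by 3.13 ± 0.18 (log2, SE). Tcl1, a coactivator of Akt (chromosome 12 segment), fell from 81.9 to 94.4 TPM to between 9.56 and 10.2 TPM, by -3.03, or -2.48 with the segment median removed. For both genes every d6 library lay far below every d4 library, and a lack of overlap was a condition of their selection by rank.

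Esrrb, an orphan nuclear receptor that sustains self-renewal, fell from 286, 233 and 288 TPM to 35.4, 37.7 and 37.2 TPM, a change of -2.83 (-2.28 with the segment median of chromosome 12 removed). Nr0b1, a repressor of nuclear receptors, fell by 2.54, Klf4 by 2.40 and Nr5a2 by 2.39 on the log2 scale. Zfp42, the ESC marker Rex1 (chromosome 8), fell from a range of 560 to 623 TPM to one of 135 to 146 TPM, a change of -2.08, or -1.64 with the segment median removed. Tbx3, a T-box factor, fell from 13.2, 10.7 and 14.9 TPM to 7.13, 7.17 and 4.85 TPM, by 0.92 ± 0.14.

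Sox15 was the exception among the naive factors. It is a relative of Sox2 and rose from 27.8, 25.6 and 22.8 TPM to 69.5, 57.5 and 45.2 TPM (log2 change 1.13 ± 0.15, adjusted p = 9.13e-06). In Ctrl cells it fell from a mean of 56.7 to 21.5 TPM, and the genotypes differed by 2.50 (adjusted p = 3.59e-07). Dppa3, a naive and germ cell marker of the chromosome 6 segment, stood at 53.7, 35.5 and 35.3 TPM at d4 and 43.4, 51.4 and 53.1 TPM at d6 in KO cells. These ranges overlapped and the change of 0.27 was not called, but it was 0.63 with the segment median removed (adjusted p = 0.00212) and 0.46 without d4 replicate 1 (adjusted p = 0.00773). In Ctrl cells Dppa3 fell by 1.72.

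The factors of general pluripotency fell less than the naive ones. Of 8, 4 fell and 1 rose in KO cells (median -0.31), whereas all 8 fell in Ctrl cells (median -1.18), and the difference was called for 6. Pou5f1, which encodes Oct4, went from 969, 1040 and 1030 TPM to 718, 561 and 678 TPM, a fall by 0.64 ± 0.10 that kept the d6 libraries above every Ctrl_D4 library, whose mean was 453 TPM. The Ctrl cells ended at a mean of 101 TPM, and the responses differed by 1.51 (adjusted p = 1.9e-06). Nanog (chromosome 6 segment) fell from 776, 668 and 688 TPM to 332, 281 and 286 TPM, by -1.24 against -2.48 in Ctrl cells. With the segment median removed the KO change was -0.88. Sox2 fell in both genotypes, by 0.80 in KO cells and 0.65 in Ctrl cells, and here the difference was not called (adjusted p = 0.449).

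Of 15 other pluripotency genes 1 rose and 9 fell in KO cells (median -0.42), and 1 rose and 13 fell in Ctrl cells (median -1.35). Utf1, a chromatin factor of ESCs and epiblast, rose from 797, 771 and 964 TPM to 1210, 1560 and 1730 TPM (0.82 ± 0.16), while in Ctrl cells it fell to a mean of 175 TPM. Tcea3, an elongation factor, rose from 52.4, 50.5 and 59.7 TPM to 102, 90.1 and 89.8 TPM, and in Ctrl cells it fell to 16.0 TPM. Both differences between the genotypes were called, at 2.17 for Utf1 and 1.64 for Tcea3.

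Tdgf1, the Nodal coreceptor Cripto, was at 277, 275 and 253 TPM at d4 and at 519, 291 and 312 TPM at d6. Its d6 libraries all lay above the d4 ones, but the change of 0.43 was not called (adjusted p = 0.0333) unless d6 replicate 2 was left out (0.58, adjusted p = 0.00793). Dppa5a fell from 1920, 1800 and 1650 TPM to 1540, 1230 and 1240 TPM, a change of -0.42 whose call was lost without d4 replicate 1 or 2 or d6 replicate 2 or 3 (adjusted p 0.0175 to 0.0299).

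Of 25 genes of the postimplantation epiblast, 11 rose, 4 fell and 10 were not called. Of the 12 transcription factors among them 7 rose and 2 fell, with a median of 0.71 beside 0.39 in Ctrl cells, and of the 13 ligands and other genes 4 rose and 2 fell (median 0.05). Pou3f1, the POU factor Oct6, rose from 22.3, 26.4 and 31.0 TPM to 137, 123 and 133 TPM, by 2.27 ± 0.15. Otx2, a homeobox factor of the epiblast and the later forebrain, rose from 92.5, 103 and 90.8 TPM to 166, 153 and 164 TPM (0.75 ± 0.16), while the Ctrl means were 6.59 and 9.14 TPM. Zic2 rose by 0.67, Zic5 by 0.86, Grhl2 by 1.04 and Lef1 by 1.41. The 2 that fell were Grhl3 (-1.69) and Hesx1 (-1.60).

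Fgf5 is the classical marker gene of the epiblast and encodes a growth factor. It rose from 16.1, 22.1 and 16.8 TPM to 87.1, 94.9 and 115 TPM in KO cells (2.37 ± 0.21, adjusted p = 1.35e-07) and fell in Ctrl cells from a mean of 6.90 to 2.44 TPM. Its difference between the genotypes, 3.61, headed the positive differences named by rank. Wnt8a, a ligand of the epiblast and primitive streak, rose from 5.6, 8.91 and 10.4 TPM to 92.9, 33.6 and 34.2 TPM, with d6 replicate 1 far above the other libraries. Dnmt3l, the cofactor of the de novo methyltransferases, rose by 1.33 in KO cells and by 1.35 in Ctrl cells.

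**Figure D2:**
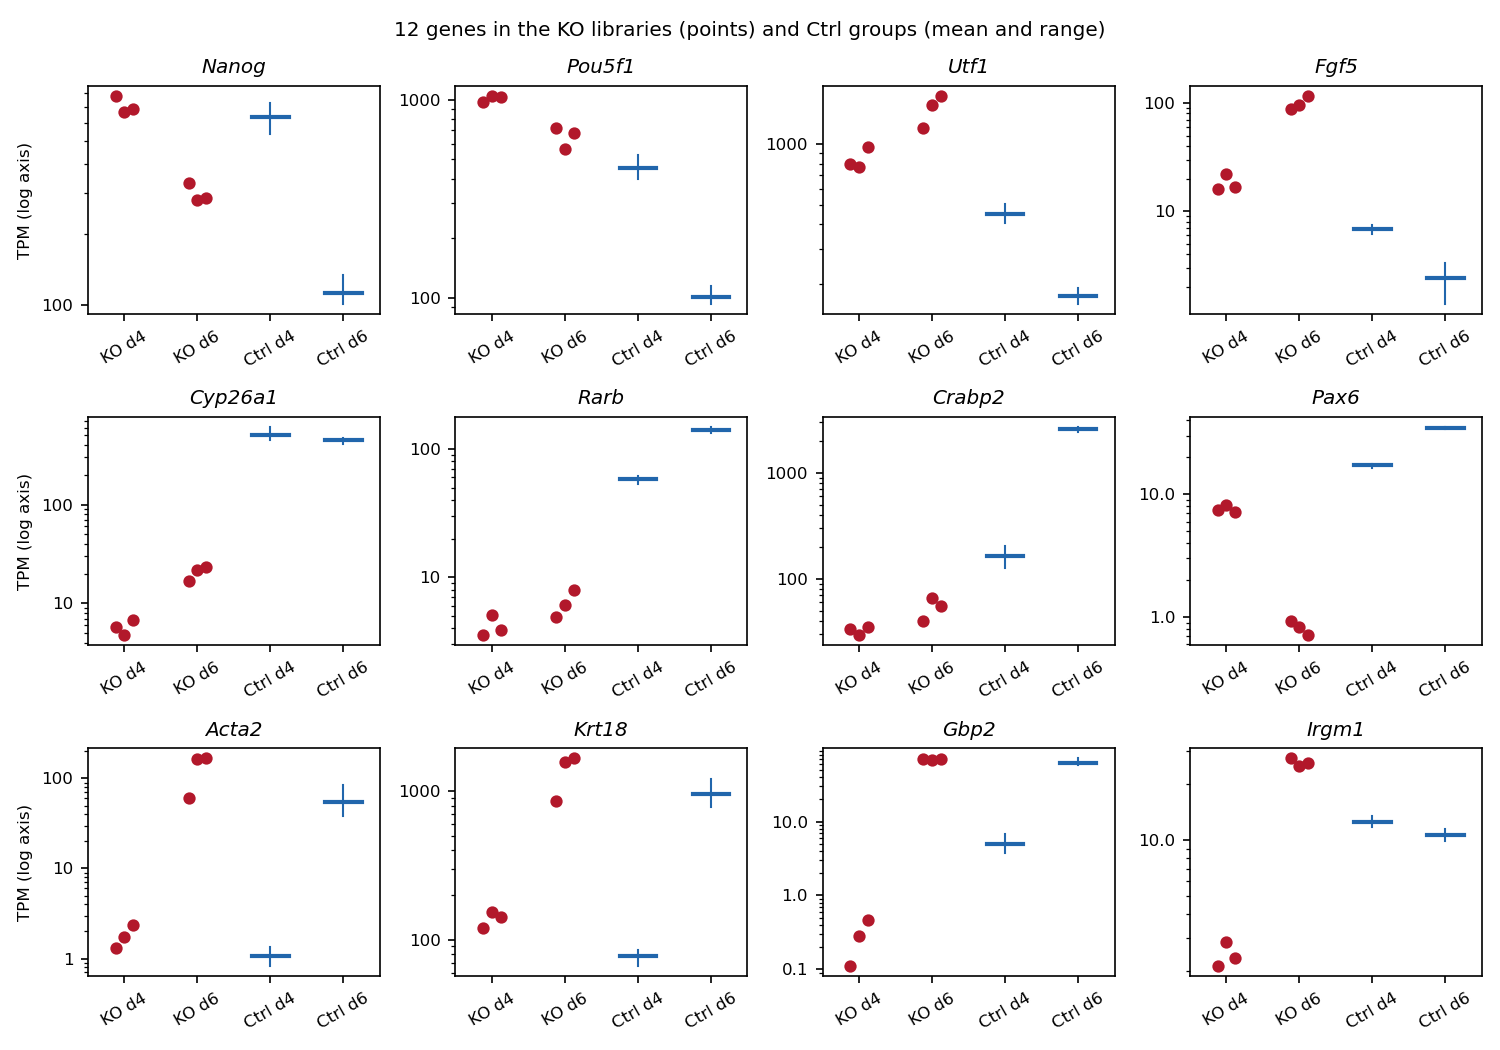
TPM (log axis) of 12 genes. Red points are the 3 KO libraries of each day, and blue bars are the mean of the 3 Ctrl libraries with a line from the lowest to the highest. Nanog and Pou5f1 fell less in KO than in Ctrl cells, Utf1 and Fgf5 rose in KO but not in Ctrl cells, and Cyp26a1, Rarb and Crabp2 of the KO cells stayed below every Ctrl library on both days.

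The retinoic acid step itself was read from the genes of the pathway. Cyp26a1 encodes the enzyme that hydroxylates and clears retinoic acid, and Rarb encodes a receptor, and both are direct targets of the receptors. Their promoters are shown because each holds a DR5 element, a direct repeat of the receptor's half-site. The sequences are the 250 bases before the RefSeq start of each gene on GRCm38.p6, written 5′ to 3′ on the gene's strand, and the capitals mark the DR5 match.
Cyp26a1 (chr19:37697558-37697807, plus strand): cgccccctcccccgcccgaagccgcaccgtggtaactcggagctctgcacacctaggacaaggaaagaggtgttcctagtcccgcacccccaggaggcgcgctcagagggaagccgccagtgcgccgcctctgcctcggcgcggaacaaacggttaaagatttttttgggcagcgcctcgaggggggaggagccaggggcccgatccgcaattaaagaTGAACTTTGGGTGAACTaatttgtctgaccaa
Rarb (chr14:16575477-16575726, minus strand): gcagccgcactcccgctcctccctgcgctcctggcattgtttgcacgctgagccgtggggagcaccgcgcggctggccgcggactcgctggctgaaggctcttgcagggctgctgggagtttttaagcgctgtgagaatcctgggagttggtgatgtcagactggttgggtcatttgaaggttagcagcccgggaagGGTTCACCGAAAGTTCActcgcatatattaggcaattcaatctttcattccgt
A DR5 match on either strand occurred in 32 of 32851 RefSeq promoter windows of 300 bases (0.0974%) and in 2 of 20 pathway genes that had a window. In KO cells Cyp26a1 rose from 5.70, 4.79 and 6.71 TPM to 16.7, 21.8 and 23.2 TPM (1.68 ± 0.16, adjusted p = 3.65e-07). The Ctrl cells, by contrast, had a mean of 509 TPM at d4, before retinoic acid was added, and 452 TPM at d6. Rarb was at 3.56, 5.13 and 3.92 TPM at d4 and 4.88, 6.13 and 8 TPM at d6. The ranges overlapped, and the change of 0.49 was not called (adjusted p = 0.0241) except without d6 replicate 1 (0.63, adjusted p = 0.00618). Ctrl cells went from 58.6 to 141 TPM.

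Of the 29 genes of the retinoic acid pathway in the table, 11 rose and 2 fell in KO cells, with a median of 0.24 beside 0.50 in Ctrl cells, where 14 rose and 5 fell. The KO values depended on the setting. The median was 0.07 with quantile normalization (6 rose and 4 fell) and 0.32 with a pseudocount of 0.1 (7 rose and 3 fell). The difference between the genotypes was called for 15 of them, 6 more positive and 9 more negative in KO cells. Dhrs3, which reduces retinaldehyde to retinol, rose in KO cells from 1.80, 2.09 and 2.17 TPM to 7.15, 5.50 and 8.31 TPM, and Stra6, the retinol transporter, from between 2.12 and 2.96 TPM to between 4.44 and 4.84 TPM. Tgm2, a transglutaminase that responds to retinoic acid, rose by 1.04 in KO and by 2.15 in Ctrl cells. Rara fell by 0.56 and Rarg was not called (-0.07).

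The binding proteins differed between the genotypes. Crabp2, which carries retinoic acid to the nucleus, went from 33.7, 29.7 and 35.2 TPM to 40.2, 66.1 and 55.3 TPM in KO cells. Its change of 0.67 was called (adjusted p = 0.00695) but lost the call when any 1 KO library other than d6 replicate 1 was left out (adjusted p 0.0124 to 0.0449). In Ctrl cells Crabp2 rose from a mean of 163 to 2560 TPM. Crabp1 was at 41.2, 52.6 and 44.5 TPM and then at 31.4, 37.5 and 37.7 TPM in KO cells, a change of -0.36 that was not called (adjusted p = 0.0287), and rose to 3300 TPM in Ctrl cells. The differences between the genotypes were -3.32 and -3.62. Cyp26b1, another hydroxylase (chromosome 6 segment), lay between 0.554 and 0.764 TPM in all 6 KO libraries and rose from 7.61 to 60.5 TPM in Ctrl cells.

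Hox genes, whose order of activation along the body axis depends on retinoic acid, barely moved. Of 22 in the table, 1 rose (none without d6 replicate 1) and 2 fell in KO cells (median -0.09), beside 16 up and 3 down in Ctrl cells (median 1.06). Hoxb1 lay between 0.488 and 0.899 TPM in all 6 libraries and was not called. Hoxd8 fell from 3.54, 2.00 and 3.18 TPM to 1.4, 1.27 and 0.969 TPM. The cofactor gene Meis1 fell by 0.55 (-0.45 without d6 replicate 3, adjusted p = 0.0117), and in Ctrl cells it rose by 0.69.

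As a group, neural genes did not rise. Of 23 transcription factors of neural progenitors, 1 rose and 7 fell in KO cells (median -0.14), whereas 16 rose and 1 fell in Ctrl cells (median 1.25), and the difference was called against the KO cells for 16. Pax6, a homeobox factor of neural progenitors, fell from 7.51, 8.25 and 7.11 TPM to 0.934, 0.827 and 0.715 TPM (-2.24 ± 0.12, adjusted p = 1.17e-09). In Ctrl cells it rose from 17.2 to 34.6 TPM. Tshz1 fell by 1.29, Sox21 by 0.91 and Irx5 (chromosome 8) by 1.07, or 0.63 with the segment median removed, and each of these was higher in Ctrl cells at d6 than in any KO library.

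The 1 factor of this list that rose was Pax3, from 0.111, 0.217 and 0.230 TPM to 0.725, 0.690 and 0.525 TPM. The call was lost without any 1 KO library except d6 replicate 3 (adjusted p 0.0118 to 0.0237), and the Ctrl mean at d6 was 17.7 TPM. Sox3, a SoxB1 factor of epiblast and neural cells, stood at 29.9, 33.0 and 38.8 TPM and then at 38.4, 60.5 and 69.1 TPM. It was not called (0.67, adjusted p = 0.0296) except without d6 replicate 1 (0.92, adjusted p = 0.00529). Zfp521, which promotes early neural differentiation, was at 6.47, 7.27 and 7.85 TPM at d4 and at 4.25, 5.26 and 6.14 TPM at d6. Its fall by 0.41 (adjusted p = 0.009) lost the call without any 1 KO library except d4 replicate 1 and d6 replicate 3 (adjusted p 0.0211 to 0.0465), and also without any 1 Ctrl library, which share the estimate of the spread.

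Among structural genes of progenitors and neurons the directions were mixed. Nes rose from 16.1, 23 and 17.3 TPM to 42.2, 55.6 and 52.5 TPM (1.37 ± 0.14), less than in Ctrl cells (2.80), and the difference of -1.43 was called. Vim, the intermediate filament vimentin, fell from 59.2, 56.9 and 62.5 TPM to 31.3, 28.8 and 24.6 TPM in KO cells and rose to 210 TPM in Ctrl cells. Of 17 neuronal structural genes, 5 rose and 7 fell. Tubb3, the neuronal tubulin on chromosome 8, fell from 117, 103 and 118 TPM to 32.5, 34.2 and 44.9 TPM, by -1.58, or -1.14 with the segment median removed. Stmn2, a regulator of microtubules, fell by 2.51 and Ncam1, a cell adhesion gene, by 1.35.

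The proneural genes did not rise as a group, and of 11, 1 rose and 3 fell. Neurog1 was at 0.406, 0.341 and 0.422 TPM and then at 1.14, 0.518 and 0.722 TPM, which was not called (adjusted p = 0.13), while Ctrl cells reached 30.8 TPM. Insm1, a zinc finger factor of neuronal precursors, was the 1 that rose, from between 3.5 and 3.74 TPM to between 7.44 and 7.82 TPM. Gbx2, a homeobox gene of the epiblast and hindbrain, lay between 12.3 and 19.8 TPM and was not called (0.11, adjusted p = 0.698).

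**Figure D3:**
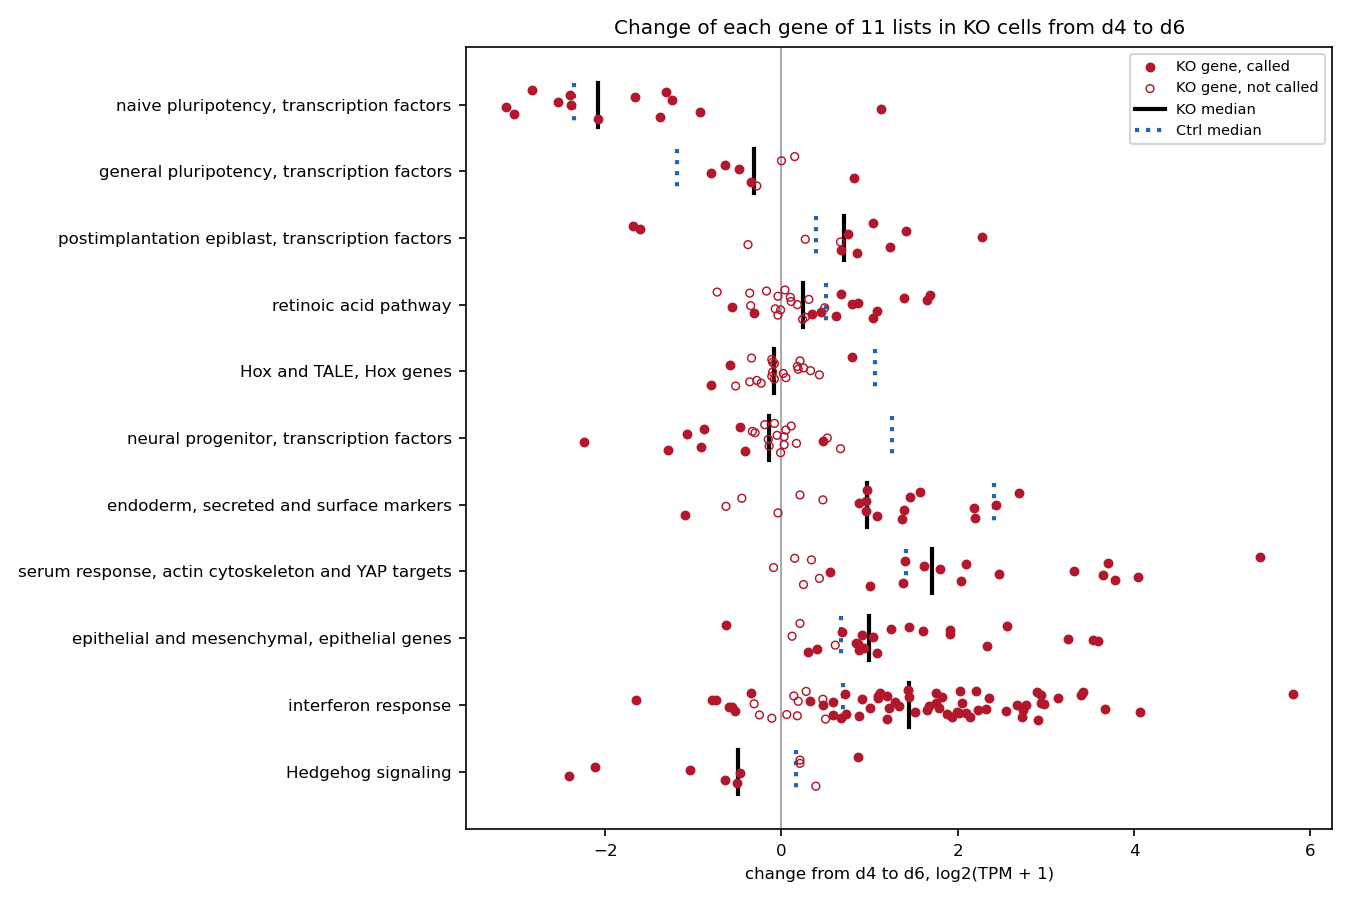
Change from d4 to d6 on the log2(TPM + 1) scale for each gene of 11 lists in KO cells, filled where called and open where not. The black bar is the KO median and the dotted blue bar the Ctrl median. The medians of naive factors lie at -2.08 and -2.35, those of Hox genes at -0.09 and 1.06 and those of neural factors at -0.14 and 1.25.

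Against this, genes of the actin cytoskeleton rose steeply in both genotypes. Of 20 actin cytoskeleton and YAP target genes, 15 rose and none fell in KO cells (median 1.71), beside 16 up in Ctrl cells (median 1.41). Genes of this list are known targets of SRF, which binds the CArG box, or of YAP with its TEAD partners. The activity of neither was tested here. Promoters of Actc1 and of the list member Myl9 are shown, as above, with the CArG box in capitals.
Actc1 (chr2:114052876-114053125, minus strand): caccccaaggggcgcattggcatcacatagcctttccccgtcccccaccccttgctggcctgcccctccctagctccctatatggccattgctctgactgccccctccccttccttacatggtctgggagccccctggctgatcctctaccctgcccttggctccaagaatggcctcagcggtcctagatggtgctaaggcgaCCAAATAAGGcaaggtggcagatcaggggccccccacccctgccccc
Myl9 (chr2:156775214-156775463, plus strand): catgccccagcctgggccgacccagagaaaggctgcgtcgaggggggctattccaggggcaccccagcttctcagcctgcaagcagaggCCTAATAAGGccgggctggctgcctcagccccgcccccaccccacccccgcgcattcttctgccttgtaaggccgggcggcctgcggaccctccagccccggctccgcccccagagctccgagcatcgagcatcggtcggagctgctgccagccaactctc
A CArG box lay in 1.63% of all promoter windows and in 4 of the 14 listed genes with a window (Actg1, Cnn2, Myl9 and Vcl). Actc1 is not on that list and is shown because its change is among the largest. Actc1, the cardiac actin, rose from 1.33, 2.71 and 0.985 TPM to 16.5, 37.4 and 44.9 TPM. Myl9, a myosin light chain of smooth muscle, rose from 11.8, 22.6 and 14.5 TPM to 70.7, 99.8 and 110 TPM. In both, the lowest d6 library lay above the highest d4 library, which for Actc1 was a condition of its selection by rank.

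Acta2, smooth muscle actin, rose from 1.32, 1.75 and 2.36 TPM to 60.5, 166 and 167 TPM, by 5.43 ± 0.36, the second largest change of all genes named by rank. Acta1, skeletal actin (chromosome 8), rose by 5.29, or 5.73 with the segment median removed. Tagln, an actin-binding protein of smooth muscle, rose from 27.2, 51.7 and 28.9 TPM to 367, 678 and 798 TPM. Replicate 1 of d6 was the lowest of the d6 libraries for each of these genes, and without it 18 of the 20 listed genes rose. For none of Acta2, Acta1, Actc1, Tagln and Myl9 was the difference between the genotypes called (adjusted p 0.288 to 0.383).

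The YAP targets Cyr61, Ankrd1 and Thbs1 rose by 3.32, 3.70 and 3.78. Immediate early genes went the same way, with 10 of 14 higher and none lower (median 0.96, beside 0.51 in Ctrl cells). Ier3 rose from 14.9, 12.5 and 17 TPM to 163, 89.1 and 83.2 TPM and Junb (chromosome 8) by 1.56, or 2.01 with the segment median removed, while Fos and Egr1 were not called.

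Epithelial genes rose as well. Of 24 in the table, 20 rose and 1, Cdh3, fell in KO cells (median 0.99), beside 13 up and 4 down in Ctrl cells (median 0.68). Cdh3, P-cadherin, lies on chromosome 8, and its change of -0.63 was -0.18 and not called with the segment median removed. The keratin genes Krt8, Krt18 and Krt19, which encode filaments of simple epithelia, rose by 3.59, 3.25 and 3.53. Krt18 went from 120, 154 and 142 TPM to 858, 1590 and 1670 TPM, with d6 replicate 1 again the lowest. In Ctrl cells it rose to 961 TPM, and the difference was not called (adjusted p = 0.566). The claudin genes Cldn3, Cldn4, Cldn6 and Cldn7, which seal tight junctions, rose by 1.24 to 2.56. Rab25, a small GTPase of epithelial recycling, rose from 4.23, 6.02 and 4.39 TPM to 27.0, 25.8 and 32.2 TPM, and in Ctrl cells it was at 4.04 and 4.17 TPM (difference 2.29, adjusted p = 3.28e-06).

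Epcam, the epithelial adhesion molecule in the chromosome 17 segment, rose from 194, 247 and 231 TPM to 813, 810 and 904 TPM, by 1.91, or 0.99 with the segment median removed. Cdh1, E-cadherin on chromosome 8, was at 456, 523 and 478 TPM at d4 and at 503, 563 and 617 TPM at d6. The change of 0.21 was not called (adjusted p = 0.0314), but it was called without d6 replicate 1 (0.28, adjusted p = 0.00513) and was 0.65 with the segment median removed (adjusted p = 5.51e-06). In Ctrl cells Cdh1 fell by 0.61, and the genotypes differed by 0.81 (adjusted p = 4.23e-05).

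Of 15 mesenchymal genes, 7 rose and 4 fell in KO cells. Cdh2, N-cadherin, was at 2.90, 2.85 and 2.51 TPM and then at 1.96, 1.66 and 2.27 TPM, just short of the threshold (-0.34, adjusted p = 0.0108), and it passed without d6 replicate 3 (-0.42, adjusted p = 0.00505). In Ctrl cells it rose from 24.2 to 85.2 TPM. Among the repressors of E-cadherin, Snai1 rose from 4.37, 4.02 and 1.51 TPM to 11.5, 7.77 and 7.58 TPM, and Zeb1, the relative of Zeb2, fell from 7.81, 5.96 and 7.27 TPM to 3.28, 2.76 and 2.01 TPM. Snai2 lay between 1.72 and 3.10 TPM and was not called. Twist1 rose by 0.92 (adjusted p = 0.0092), but lost the call without any 1 KO library (adjusted p 0.0138 to 0.0351) and without any 1 Ctrl library except Ctrl_D4 replicate 2.

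The largest single change of the KO cells was in an interferon-response gene. Gbp2 (ENSMUSG00000028270, chromosome 3) encodes a guanylate-binding protein and rose from 0.111, 0.280 and 0.462 TPM to 70.6, 69.1 and 71.0 TPM, by 5.80 ± 0.17 (adjusted p = 1.8e-12). Interferons act through JAK and STAT proteins and the IRF factors, which bind the ISRE, and so raise antiviral and antigen-presenting genes. Promoters of 2 strongly raised genes are shown in the same way, with matches to the ISRE in capitals, searched on either strand as 2 copies of GAAA with any 2 bases between them. Irgm1 holds 2 matches that overlap.
Gbp2 (chr3:142620413-142620662, plus strand): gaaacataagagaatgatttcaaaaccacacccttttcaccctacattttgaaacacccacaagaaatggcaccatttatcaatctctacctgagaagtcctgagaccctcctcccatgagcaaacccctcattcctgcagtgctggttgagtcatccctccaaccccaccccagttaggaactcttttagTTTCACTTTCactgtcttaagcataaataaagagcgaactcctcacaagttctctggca
Irgm1 (chr11:48871421-48871670, minus strand): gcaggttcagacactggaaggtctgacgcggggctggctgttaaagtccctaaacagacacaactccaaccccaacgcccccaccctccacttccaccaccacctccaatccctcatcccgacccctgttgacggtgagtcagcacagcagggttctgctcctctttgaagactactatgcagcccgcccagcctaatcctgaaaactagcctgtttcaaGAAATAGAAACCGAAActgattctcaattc
This motif lay in 3.44% of all promoter windows. Among genes that had a window, it lay in 3.31% of those in the table and in 22 of 59 interferon-response genes (37.3%). The list of interferon-response genes was put together after the values had been seen, and the 22 include Ifitm2 and Ifitm3, which fell. The share is thus a description only. Irgm1, an immunity-related GTPase, rose from 2.12, 2.83 and 2.35 TPM to 27.3, 24.9 and 25.9 TPM. In Ctrl cells it was at 12.4 and 10.6 TPM, and the genotypes differed by 3.2 (adjusted p = 3.59e-07). Both genes were low and then high in all 3 libraries of a day with no overlap, which for Gbp2 was a condition of its selection by rank.

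A list of interferon-response genes was put together after these values had been seen, so its counts describe and support nothing. Of 72 in the table, 55 rose and 7 fell in KO cells (median 1.45), and 40 rose and 9 fell in Ctrl cells (median 0.70). All 6 guanylate-binding and immunity-related GTPases rose (median 2.97), among them Gbp7 from between 0.216 and 0.535 TPM to between 12.1 and 13.5 TPM. Of 15 genes of antigen processing and presentation 14 rose. Psmb8, a subunit of the immunoproteasome, rose from 0.681, 0.643 and 0.442 TPM to 25.5, 26.8 and 24.6 TPM, and Tapbp, which loads class I molecules, by 2.73 ± 0.07. B2m, the light chain of class I, rose by 2.02 in KO and 2.16 in Ctrl cells.

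Among the regulators, Irf1 rose from 22.1, 18.7 and 21.7 TPM to 91.7, 89.1 and 87.6 TPM in KO cells and fell by 0.60 in Ctrl cells (difference 2.66, adjusted p = 1.18e-08). Not all of the antiviral genes were higher in the KO cells. Oasl2 rose by 3.67 and Cxcl10, a chemokine, by 3.42, but Ifit1 rose only from between 0.107 and 0.132 TPM to between 0.830 and 1.29 TPM and in Ctrl cells to 11.6 TPM (difference -2.32). Ifitm1, Ifitm2 and Ifitm3, which ESCs express without interferon, fell by 1.65, 0.79 and 0.74. Bst2 (chromosome 8), which tethers viruses to the cell surface, rose from 431, 519 and 427 TPM to 1970, 2110 and 2280 TPM, by 2.21, or 2.65 with the segment median removed.

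In signalling, genes of the Nodal and FGF pathways differed between the genotypes. Nodal itself lay between 171 and 195 TPM in all 6 KO libraries and was not called (-0.07), while it fell by 1.39 in Ctrl cells (difference 1.33, adjusted p = 2.01e-06). Of 18 genes of the pathway 2 rose and 7 fell in KO cells, and 3 rose and 12 fell in Ctrl cells. The inhibitor Lefty2 fell from 394, 347 and 395 TPM to 123, 124 and 121 TPM (-1.62), and Lefty1 from 581, 554 and 611 TPM to 415, 359 and 377 TPM (-0.60). Gdf3, a ligand in the chromosome 6 segment, fell by -1.77, or -1.41 with the segment median removed.

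Of 14 feedback and target genes of FGF and ERK, 4 rose and 2 fell in KO cells, against 1 and 8 in Ctrl cells, and the difference was called for 10, all more positive in KO cells. Etv5, a transcription factor downstream of FGF, lay between 134 and 151 TPM in the 6 KO libraries and fell from 81.0 to 22.2 TPM in Ctrl cells. Spry1, an inhibitor of the pathway, rose from 45.2, 45.0 and 54.6 TPM to 92.0, 113 and 109 TPM. The ligand gene Fgf17 fell by 2.41 in KO and 2.69 in Ctrl cells, and Fgf8 rose from between 2.69 and 4.55 TPM to between 12.5 and 14.9 TPM in KO cells.

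BMP target genes rose in KO cells, 6 of 8, with 2 lower (median 1.23), and in Ctrl cells 5 rose and 2 fell (median 1.35). In KO cells Id1, an inhibitor of bHLH factors, rose by 1.95, Id3 by 1.68 and Msx1 by 1.63, and Id4 fell by 1.23. Hedgehog genes went down, 6 of 10 with 1 higher (median -0.49, beside 0.16 in Ctrl cells). Gli1, the factor that reports the activity of this pathway, fell from 54.5, 46.5 and 60.1 TPM to 15.0, 11.6 and 8.75 TPM (-2.12 ± 0.18), and in Ctrl cells it was not called (-0.30). The difference of -1.82 was called. Among 29 Wnt genes 12 rose and 7 fell, with Wnt4 (1.89) and Wnt7b (2.12) higher and Sfrp1 (chromosome 8) lower, by -2.17, or -1.72 with the segment median removed. Of 19 Notch genes 4 rose and 3 fell, among them Jag1, a ligand (-0.69). The Notch counts lie near the shares over all genes, of which 21.5% rose and 19.9% fell.

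Many genes of other lineages rose, some of them from low levels. Of 19 secreted and surface markers of endoderm 13 rose and 1 fell (median 0.97), and in Ctrl cells 16 rose (median 2.41). Apoa1, an apolipoprotein, went from 0.206, 0.864 and 1.92 TPM to 9.24, 18.7 and 7.87 TPM, and in Ctrl cells to 77.8 TPM. Cubn, the endocytic receptor cubilin, rose by 2.43 and Dab2, its adaptor, by 2.18, and the factor gene Foxa2 rose from between 0.0882 and 0.733 TPM to between 2.77 and 2.90 TPM. Of 22 mesoderm genes 12 rose and 1 fell in KO cells, and 12 rose and 2 fell in Ctrl cells. Eomes rose in KO cells from 2.83, 3.88 and 3.09 TPM to 12.6, 9.34 and 7.85 TPM (difference from Ctrl 1.96, adjusted p = 0.000205), and Hand1 from between 0.17 and 0.285 TPM to between 3.17 and 5.55 TPM.

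Of 11 trophectoderm genes 7 rose and 2 fell, of 24 germ cell genes 10 rose and 5 fell, and of 9 genes of the 2-cell-like state none was called in either direction. Among the germ cell genes Sycp3, of the synaptonemal complex, rose from 16.1, 18.3 and 14.7 TPM to 72.0, 79.7 and 71.4 TPM, and Nanos3 (chromosome 8) fell by -2.60, or -2.16 with the segment median removed. Among imprinted genes H19, a maternally expressed RNA, rose from 11.4, 13.6 and 12.1 TPM to 154, 191 and 149 TPM (3.63 ± 0.12), and Peg10, paternally expressed, from 11.7, 12.1 and 12.3 TPM to 115, 121 and 108 TPM (3.15 ± 0.12). Igf2 rose by 1.37 and Grb10 fell by 0.58. Of all 24 imprinted genes 8 rose and 5 fell.

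Of 29 extracellular matrix genes 17 rose and 4 fell. Sparc, a matrix glycoprotein, rose from 35.0, 46.2 and 33.1 TPM to 136, 201 and 203 TPM. Vcan, a large proteoglycan, fell from 12.2, 13.5 and 14.2 TPM to 2.44, 1.38 and 1.59 TPM and rose in Ctrl cells (difference -3.46, adjusted p = 2.5e-09).

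Genes of DNA methylation and demethylation split by enzyme. Dnmt1, the maintenance methyltransferase, fell from 340, 353 and 385 TPM to 260, 257 and 249 TPM. Dnmt3b, a de novo enzyme, was at 260, 413 and 363 TPM and then at 484, 387 and 474 TPM, a change of 0.39 that was not called (adjusted p = 0.0335) except without d4 replicate 2 (0.54, adjusted p = 0.00781). Dnmt3a did not pass either (0.05). Of the dioxygenases that oxidise methylcytosine, Tet1 fell from 104, 94.9 and 105 TPM to 55.1, 37.6 and 38.2 TPM, and Tet2 fell by 1.11. Tet3, in the chromosome 6 segment, was not called (-0.13). Gadd45a, Gadd45b and Gadd45g, linked to stress and demethylation, rose by 1.57, 2.30 and 2.59.

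Metabolic and stress genes moved in part. Of 17 glycolysis genes 7 rose and 2 fell, and of 16 hypoxia targets 8 rose and none fell. Slc2a1, the glucose transporter Glut1, rose from 310, 338 and 322 TPM to 666, 813 and 851 TPM, and in Ctrl cells it fell by 0.39. Adm rose from between 1.4 and 1.51 TPM to 32.7, 14 and 11.1 TPM, highest in d6 replicate 1. Of 17 genes of the integrated stress response 9 fell and 1 rose (median -0.54), with Asns, asparagine synthetase, down by 0.54 and Psat1, of serine synthesis, by 0.90. Of 18 p53 targets 10 fell and 3 rose, and of 34 genes of cholesterol and lipid synthesis 3 rose and 6 fell.

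Of 22 genes of replication and mitosis 3 rose and 9 fell (median -0.09), and Rrm2, of ribonucleotide reductase, fell from 417, 409 and 403 TPM to 227, 249 and 270 TPM. Of 12 D-type cyclin and inhibitor genes 3 rose and 4 fell, and the inhibitor Cdkn1c rose by 1.30. Of 61 ribosomal protein genes 2 rose and 7 fell (median 0.04), and of 69 nuclear respiratory chain genes 8 rose and 7 fell. Of 194 zinc finger genes of the Zfp series, 68 fell and 14 rose in KO cells (median -0.18), beside 63 lower and 23 higher in Ctrl cells. In the segments lie 32 of the 194. With segment medians removed 56 fell and 16 rose in KO cells.

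Among the most abundant genes that changed by more than 1, Trh, the precursor of thyrotropin-releasing hormone (chromosome 6 segment), fell from 2990, 3960 and 3510 TPM to 1200, 1310 and 1610 TPM, a change of -1.34, or -0.98 with the segment median removed. Rhox5, a reproductive homeobox gene on the X chromosome, rose from 378, 451 and 449 TPM to 1100, 967 and 851 TPM, and Igfbp2, which binds insulin-like growth factors, rose by 1.03. Hsp90aa1 (chromosome 12 segment) fell by -1.02, or -0.47 with the segment median removed. The largest losses in TPM among called genes were those of Trh, Gsta4, Hsp90ab1, Fkbp3 and Sf3b3. Gsta4, a glutathione transferase, fell from 2270, 2140 and 2090 TPM to 1210, 1180 and 1280 TPM. Fkbp3, a prolyl isomerase (chromosome 12 segment), changed by -0.82 and Sf3b3, a splicing factor subunit (chromosome 8), by -0.90, or by -0.27 and -0.45 with the segment medians removed. Hsp90ab1 fell by 0.24, which lost the call without d4 or d6 replicate 2 (adjusted p = 0.0107 and 0.0106). The largest gains were those of mt-Nd6, mt-Nd2, mt-Nd5, Bst2 and Krt18.

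Of 7 mitochondrial transcripts 4 rose in KO cells and none fell, but d6 replicates 1 and 2 were high and replicate 3 was not. mt-Nd6 was at 3160, 2680 and 2610 TPM at d4 and at 5970, 5290 and 3340 TPM at d6. Without d6 replicate 1 none of the 7 was called, and mt-Nd6 had an adjusted p of 0.0115, or 0.0116 without d6 replicate 2.

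Beyond the lists, the genes with the steepest falls included G0s2, an inhibitor of lipolysis, from 43.0, 34.8 and 43.4 TPM to 7.96, 4.60 and 2.75 TPM, and Jam2, a junctional adhesion molecule, by 2.58. Pdyn, the precursor of dynorphins, fell from between 6.03 and 7.01 TPM to between 0.0938 and 0.493 TPM. Lrrc34 and Pirt fell by 2.72 and 2.66, and in the segments BC064078 and Prmt8 by -2.86 and -2.53 (-2.49 and -2.16 with the segment median removed). Gm21028 fell by 2.74. Of those that rose, Ltb, the membrane-bound lymphotoxin, rose from 0.774, 1.87 and 1.00 TPM to 18.2, 31.0 and 37.0 TPM.

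Set side by side, 1398 genes were called higher and 1462 lower in both genotypes. Another 66 rose in KO cells and fell in Ctrl cells with the interaction called, and 66 did the reverse. The 8 most positive differences were those of Fgf5, Irgm1, Syt13, Gbp7, Wnt8a, Cdh9, Irf1 and Pdlim3. Syt13, a synaptotagmin, rose from 14.3, 13.2 and 15.5 TPM to 44.5, 54.3 and 52.6 TPM in KO cells and fell to 14.7 TPM in Ctrl cells. Cdh9, a cadherin, differed by 2.66, and Pdlim3, an actin-linked protein on chromosome 8, by 2.55 (its own change in KO cells was 1.47, or 1.91 with the segment median removed).

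The 8 most negative differences among the genes reported were Dbx1, Foxe3, Nr2f1, Pou3f2, Hes3, S100g, Fam181a and Rfx4, and most of these encode transcription factors of the neural tube or eye. Dbx1, a homeobox factor of spinal interneuron progenitors, was at 0.645, 0.135 and 0.669 TPM and then at 0.452, 0.274 and 0.430 TPM in KO cells. In Ctrl cells it rose from a mean of 0.664 to 383 TPM, and the difference was -7.97 (adjusted p = 5.34e-11). Foxe3, Pou3f2, S100g, Fam181a and Rfx4 were likewise not called in KO cells and reached means of 28.1 to 64.7 TPM in Ctrl cells at d6. Nr2f1, an orphan receptor that retinoic acid raises, fell in KO cells from 1.02, 1.14 and 0.655 TPM to 0.227, 0.371 and 0.173 TPM. That fall lost the call without d4 replicate 1 or 2 or d6 replicate 3 (adjusted p 0.0118 to 0.0162), and in Ctrl cells Nr2f1 rose to 91.4 TPM (difference -4.89). Hes3 fell from between 0.553 and 2.87 TPM to between 0.157 and 0.491 TPM, a call lost without d4 replicate 2 or 3 or d6 replicate 1 or 2 (adjusted p 0.0157 to 0.0428), and reached 70.9 TPM in Ctrl cells.

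**Figure D4:**
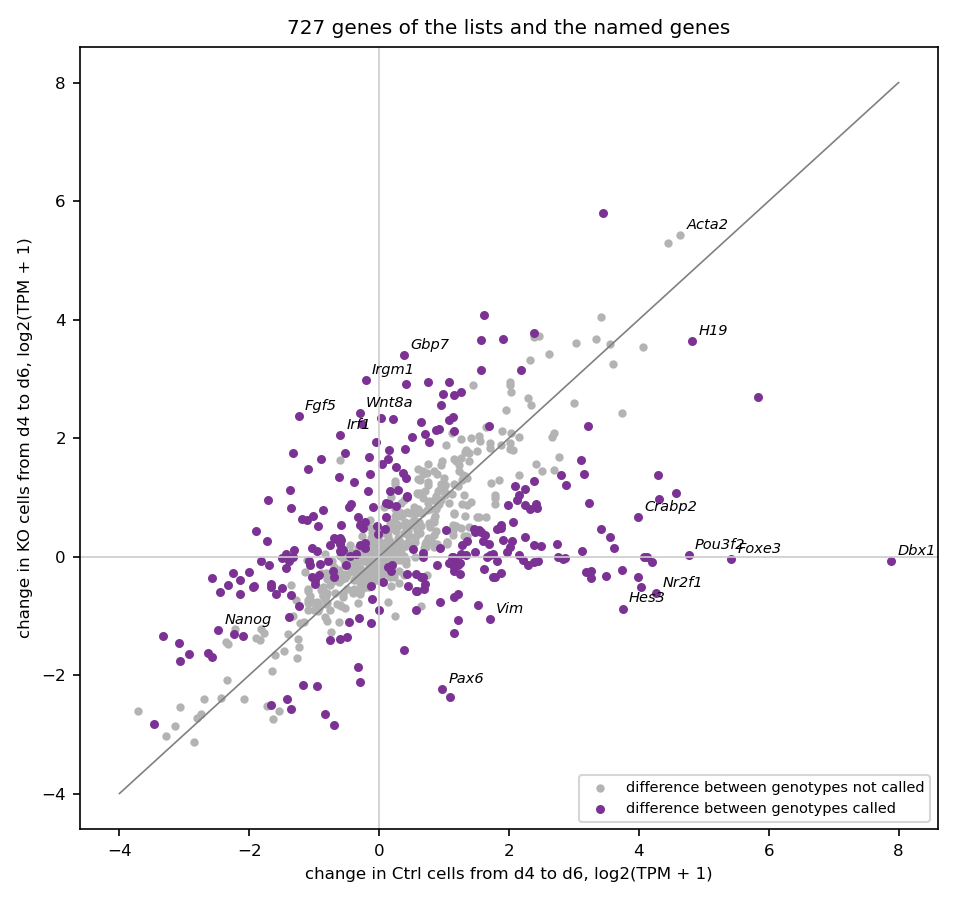
Change from d4 to d6 in KO cells (vertical axis) against the change in Ctrl cells (horizontal axis) on the log2(TPM + 1) scale for 727 genes, those of the lists and those named by rank. Purple points are the 279 genes for which the difference between the genotypes was called, the diagonal marks equal change, and Dbx1 lies farthest to the right at 7.89 in Ctrl and -0.08 in KO cells.

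The 38 genes that the study names for its RNA-seq had been chosen on these samples, so they are no independent evidence of a direction. Of these, 12 rose and 16 fell in KO cells from d4 to d6, with a median of 0.01, and 10 rose and 18 fell in Ctrl cells, with a median of -0.41. The difference between the genotypes was called for 18 of them, 12 more positive and 6 more negative in KO cells. Relative to d0, KO cells at d6 held less Nanog (a mean of 1200 TPM at d0) and more Fgf5 (a mean of 0.222 TPM at d0), and KO_D4 lay between these levels for both genes.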

How the data were processed

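RNA-seq was done on 18 libraries, 3 each of KO and Ctrl cells at d0, d4 and d6, grouped by their labels. The authors aligned reads of 36 bp to GRCm38 (TopHat2, featureCounts and DESeq2 are named in the submitters' notes) and deposited TPM per gene, after keeping genes with at least 5 TPM in at least 3 samples and removing the 20% least variable. The deposited file also holds 3 columns of the authors' variability score over all libraries, which were not used. Of 11046 entries, 81 repeated ones were left out, and 10965 genes stayed. The TPM values gave whole reads for all 10965 genes within a tolerance of 1e-05, and these served for depth and for 1 alternative.

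Changes were computed on log2(TPM + 1) with limma 3.58.1 in R 4.3.3, with a trend in the variance and 1 mean per group over all 18 libraries, which share the estimate of the spread. The KO response, the Ctrl response and their difference were tested, and p-values were adjusted by the Benjamini-Hochberg method across the 10965 genes, with a threshold of 0.01. The study describes the 3 libraries of a group as independent experiments, and the labels give only their numbers.

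The members and gene lists were chosen with earlier results of these data known, and the interferon list and the segments after the values were seen. Named were every gene that the study names, list members with large called changes, the 15 largest called changes in each direction with no overlap and at least 5 TPM, the 8 largest differences between the genotypes in each direction, the 10 most abundant called genes with a log2 change above 1 in size, and the 5 largest gains and losses in TPM. Some genes that the rule names are not reported here. Segments were runs of at least 3 bins of 10 Mb with medians beyond 0.25 in the same direction. Promoters came from RefSeq (GRCm38.p6). Beside the main setting 23 others were run, including pseudocounts of 0.1 and 5, other scalings, a minimum mean of 10 TPM, voom, a fit to the compared groups only, a replicate block and leaving out each library.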

Additional observations from a re-analysis of the deposited data

Results flagged for a closer look

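The response from d4 to d6 differed between KO and Ctrl cells for 1468 genes by the interaction test of limma (adjusted p below 0.01). The values below are log2 differences, the KO change minus the Ctrl change.

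Several genes of pluripotency and epiblast had the more positive response in KO cells, but not all genes of those lists did. The difference was 3.61 for Fgf5, 2.72 for Wnt8a, 2.5 for Sox15, 2.17 for Utf1, 1.64 for Tcea3, 1.51 for Pou5f1, 1.33 for Nodal and 1.24 for Nanog. Eomes, a factor of the primitive streak, differed by 1.96.

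Among interferon-response genes Irgm1 differed by 3.2, Gbp7 by 3.01 and Irf1 by 2.66, and Ifit1 by -2.32. Other genes with a more positive KO response were Syt13 (3.07), Cdh9 (2.66), Pdlim3 (2.55), Rab25 (2.29) and Cdh1 (0.81).

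Several neural genes had the more negative response in KO cells. The difference was -7.97 for Dbx1, -5.46 for Foxe3, -4.89 for Nr2f1, -4.74 for Pou3f2, -4.63 for Hes3, -4.32 for Rfx4, -3.21 for Pax6 and -1.43 for Nes. Fam181a differed by -4.35 and S100g by -4.57. In the retinoic acid pathway Crabp1 differed by -3.62 and Crabp2 by -3.32. Vcan differed by -3.46, Gli1 by -1.82 and Zeb2 by -1.34.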

How the results depend on the processing

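Of the 178 genes named with values, 151 were called, and 130 of these kept the call under every alternative run. None of the 151 changed direction under any alternative run. List medians were less stable. Of 89, 53 moved by more than the spread between libraries under at least 1 alternative, and 20 changed sign. No list median over 0.25 in size changed sign. The number of called genes in KO cells, 4540, was 2801 when only the compared groups were fitted, while the Ctrl count went from 4833 to 4856, and the cause was not tested. The 1045 DEGs became 615 with a mean of at least 10 TPM, where fewer genes were tested, 552 with a pseudocount of 5, which shrinks low genes, and 3122 with a log2 change above 0.5 in size. Leaving out 1 library at a time gave 3734 to 4559 called genes and 995 to 1137 DEGs in KO cells, 4135 to 4327 called genes in Ctrl cells and 1141 to 1491 differences. With segment medians removed 4091 KO genes were called, and the cause of the segments was not tested. Deviations of same-numbered d4 and d6 libraries correlated at 0.08, 0.18 and -0.05 in KO cells and at 0.13, 0.24 and 0.06 in Ctrl cells. With 3 libraries per group, such weak values cannot decide whether replicate numbers pair the libraries. A replicate block gave 4370 called genes and 1046 DEGs in KO cells, 4676 called genes in Ctrl cells and 1359 differences, and Twist1 (adjusted p = 0.0125) and mt-Nd2 (adjusted p = 0.0143) lost the call. At the lowest levels, such as Zeb2 in KO_D4 with 12 to 24 reads, depth limits the precision.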
